A study of Mus musculus with 8 samples.

Results

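The genes described here encode the enzymes of cholesterol and fatty acid synthesis and the proteins that regulate them through the sterol regulatory element-binding proteins (SREBPs). They were chosen by name from a list of 33 symbols, and 32 of them had a row among the 20793 rows of the expression table. Hmgcs1, the cytosolic HMG-CoA synthase, was not analysed here. By role, the 32 genes fell into 16 enzymes of the sterol branch, 10 genes of the fatty acid branch, 5 genes of SREBP regulation and 1 gene of sterol transport (Stard4). All 32 passed the filter on low values, which asked for at least 1 FPKM in 2 or more libraries.

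Cholesterol is built from acetyl-CoA through mevalonate, isoprenoid diphosphates, squalene and lanosterol, whereas fatty acids are built from the same acetyl-CoA through malonyl-CoA and are then elongated and desaturated. SREBPs are membrane-bound transcription factors that the escort protein SCAP carries from the endoplasmic reticulum to the Golgi, where proteases release their active part. When sterols are plentiful, INSIG proteins hold SCAP back, and transcription of the synthesis genes declines. In the brain nearly all cholesterol is made locally, because lipoprotein cholesterol does not cross the blood-brain barrier, and dividing cells need both sterols and fatty acids for new membrane.

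RNA was sequenced in 8 libraries of neural progenitors from mouse brain (strain label FvB/C57BL/6), in 2 states. Differentiating cells had spent 5 days in neurobasal medium with B27, and proliferating cells were kept in N2 medium with EGF and bFGF at 20 ng/ml. Each state had 1 FUBP1-targeted library (FUBP1-D and FUBP1), 1 CIC-targeted library (CIC-D and CIC) and 2 non-targeted (NT) libraries, which were named 7 and GFP-D in differentiating cells and TRC and GFP in proliferating cells. FUBP1 binds single-stranded nucleic acids and acts in transcription and splicing. CIC, or capicua, represses the transcription of its target genes. Hairpins were delivered by lentivirus with 3 days of puromycin, a protocol that the labels describe for FUBP1. The sources used here do not give the number of distinct hairpins. Nothing in the labels says that replicates came from separate cultures, and p-values thus measure no more than the spread among libraries, which can be technical. The deposited values are FPKM, fragment counts scaled to transcript length and library size, and a library's values summed to between 426984 and 541608. The depth in fragments is unknown.

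Fubp1 (chromosome 3, 151873422 to 151899794, in mm9 coordinates from the table) did not follow its label in proliferating cells and followed it only slightly in differentiating cells. In differentiating cells it stood at 21.6 FPKM in FUBP1-D, against 24.8 in 7, 25.4 in GFP-D and 26.9 in CIC-D. In proliferating cells it stood at 34.8 FPKM in both FUBP1 and CIC, against 50.2 in TRC and 12.4 in GFP. The lowest level thus belonged to an NT library. Directions for the FUBP1 label below are those of the libraries labelled FUBP1. Cic (chromosome 7, 26067198 to 26079167) stood at 25.6 FPKM in CIC-D, against 42.0 in 7 and 35.3 in GFP-D, and at 13.3 FPKM in CIC, against 39.4 in TRC and 33.8 in GFP.

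The proliferating libraries were not alike in the genes studied here. In all 16 sterol enzymes both FUBP1 and TRC lay above both CIC and GFP, an arrangement found in 28.8% of the 11968 rows that passed the filter. The same held for 8 of 10 fatty acid genes (all but Elovl5 and Fads1) and for 4 of 5 SREBP regulators (all but Insig2). The level of 16 cell cycle genes followed the same split, with a summed level of 1734 FPKM in FUBP1 and 1793 in TRC, beside 825 in CIC and 745 in GFP. In differentiating cells the same sum was 154 FPKM in FUBP1-D, 79.8 in CIC-D, 84.4 in 7 and 78.6 in GFP-D. The part of proliferation in the sterol values was not tested. Counts and averages of the change between states are therefore also given without FUBP1 and TRC. All differentiating libraries, FUBP1-D and 7 included, stayed in for these.

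Marker genes were summed to check the labelled cell type. Progenitor markers (10 of 10 above the filter, among them Nes, Sox2 and Vim) summed to 3122 to 4819 FPKM in differentiating and 3806 to 5420.3 FPKM in proliferating libraries, and 2 rose and 3 fell by the test described below. Much of this sum was Vim, with 3532 of the 4819 FPKM in FUBP1-D. Fabp7, among those that fell, averaged 267 FPKM in differentiating and 1554 FPKM in proliferating libraries. Astrocyte markers (8 of 8) summed to 676 to 1167 FPKM in differentiating and 284 to 366 FPKM in proliferating libraries, and 4 rose. Oligodendrocyte markers, whose lineage makes much cholesterol for myelin, summed to 102 to 253 FPKM in differentiating and 48.6 to 85.7 FPKM in proliferating libraries. Most of this sum was Cnp, with 228 of the 253 FPKM in FUBP1-D and 84.0 of the 85.7 FPKM in GFP. Of these markers, 3 of 8 passed the filter and 2 rose, among them Cnp, while Mog, Mag, Mobp and Sox10 stayed below 1 FPKM in every library. Neuron markers summed to 38.5 to 63.6 FPKM in differentiating and 30.9 to 60.7 FPKM in proliferating libraries. Of 8, 4 passed the filter and 1 rose (Tubb3), and Dcx, Rbfox3, Snap25 and Syt1 were below 1 FPKM throughout. Markers of microglia (2 of 7 above the filter), endothelium (1 of 6) and mesenchyme (0 of 6) summed to at most 7.71, 4.66 and 6.49 FPKM in any library, and none of those tested was called. The part of these cell types in the results was not tested.

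**Figure D1:**
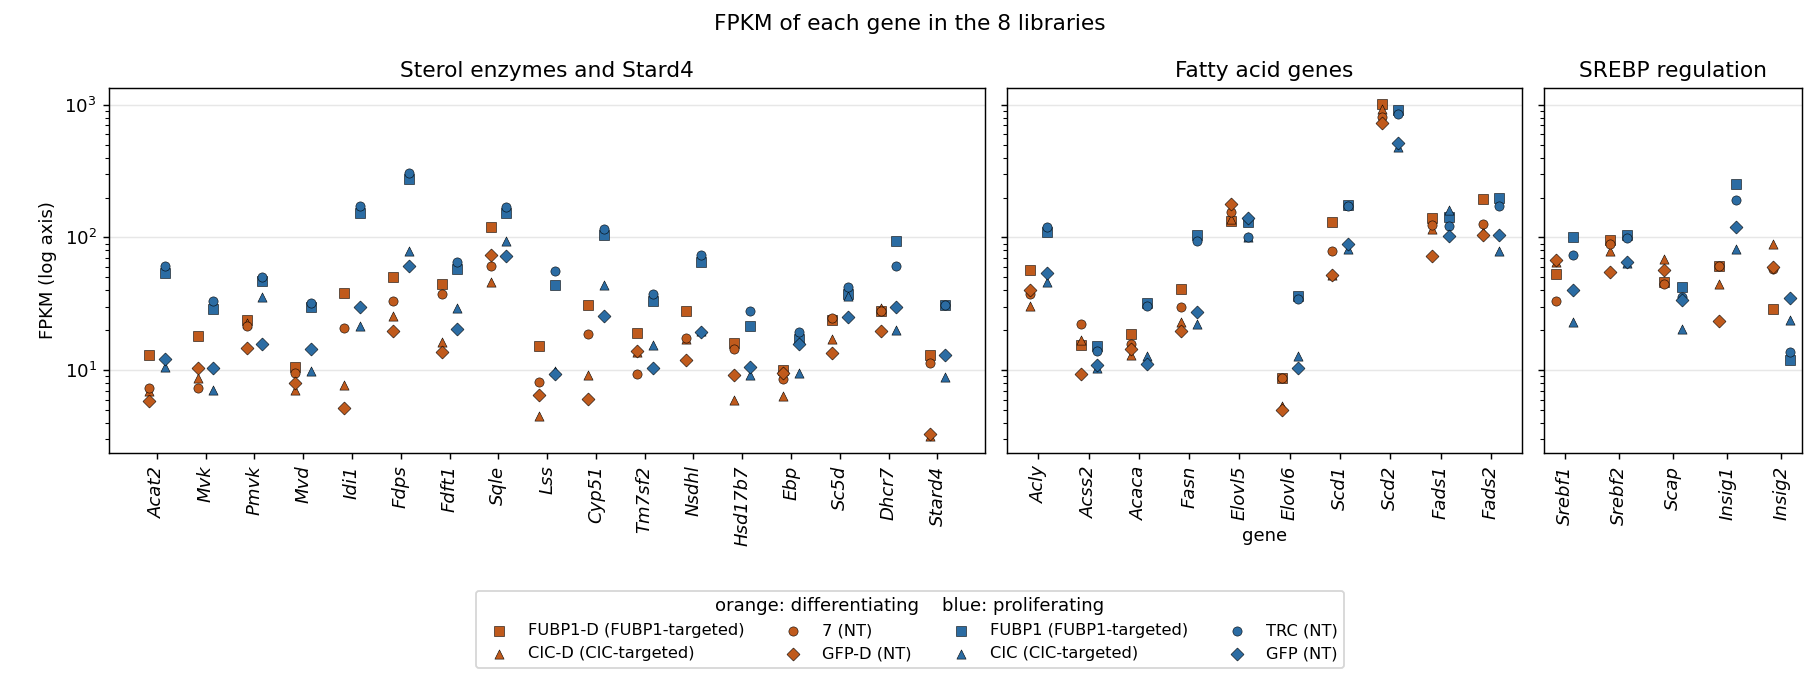
FPKM of the 32 genes (log axis) in the 4 differentiating libraries (orange) and the 4 proliferating libraries (blue), with squares for FUBP1-targeted, triangles for CIC-targeted and circles (7, TRC) or diamonds (GFP-D, GFP) for NT libraries. In every sterol enzyme the proliferating FUBP1 and TRC symbols sit above those of CIC and GFP, and Scd2 is the most abundant gene, at 479 to 1006 FPKM.

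Some values carry a limit of mapping. Exact 50-base windows shared with transcripts of other genes (GENCODE M21) made up 86.4% of the longest Fdps transcript, 52.6% of that of Acaca, 45.9% of that of Acat2, 21.3% of that of Idi1 and 10.9% of that of Fdft1, and below 5% of every other gene's, Scd1 (4.66%) and Scd2 (4.01%) included. The sources used here do not say how such fragments were assigned, and the levels of the first 5 genes are therefore uncertain. Fdft1, Tm7sf2 and Srebf1 overlap another gene of the table (Ctsb, Vps51 and Rai1), from which they cannot be told apart without strand. In bulk RNA, fewer cells that express a gene and less RNA per cell cannot be told apart either.

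In differentiating cells 7 of the 16 sterol enzymes fell relative to proliferating cells, and the other 9 did not pass the test. Values were compared as log2(FPKM + 1) with limma, in a model of the 8 libraries that adds an effect of the state to one of the targeted gene, with Benjamini-Hochberg adjustment over 11968 rows and a threshold of 0.05. Of all rows 38.8% were called in either direction, and of the 32 genes 11 fell and 1 rose. The 7 sterol enzymes were Fdps, Idi1, Cyp51, Acat2, Mvd, Sc5d and Ebp, which is 43.8% of the 16, whereas 17.7% of all rows were called lower. No enzyme rose, against 21.2% of all rows called higher. All 16 estimates were negative, with a median of -0.78 beside 0.09 over all rows. FPKM means below are over the 4 libraries of a state, and their SD thus holds the differences between hairpins.

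The 5 enzymes with the largest fitted decreases act from the first step of the pathway up to the demethylation of lanosterol. Acat2, the cytosolic thiolase that joins 2 acetyl-CoA molecules, had 13.0 FPKM in FUBP1-D, 6.93 in CIC-D, 7.33 in 7 and 5.88 in GFP-D, against 54.0 in FUBP1, 10.5 in CIC, 60.9 in TRC and 12.1 in GFP (log2 change -1.58, SE 0.49, limma adjusted p = 0.0382). The ranges overlapped, because FUBP1-D exceeded CIC and GFP. Idi1 (chromosome 13, 8884852 to 8891642), the isomerase of isopentenyl diphosphate, had 38.2 FPKM in FUBP1-D, 7.73 in CIC-D, 20.9 in 7 and 5.17 in GFP-D, against 152 in FUBP1, 21.5 in CIC, 172 in TRC and 29.8 in GFP (log2 change -2.16, SE 0.61, adjusted p = 0.0287). Again FUBP1-D exceeded CIC and GFP. Idi1 varied most of all 32 genes, with a ratio of 33.2 between its highest and lowest library. Fdps (chromosome 3, 88897510 to 88905889) makes farnesyl diphosphate, from which squalene, dolichol and protein prenyl groups are derived. It had 50.2 FPKM in FUBP1-D, 25.4 in CIC-D, 33.1 in 7 and 19.8 in GFP-D, against 276 in FUBP1, 79.6 in CIC, 308 in TRC and 60.9 in GFP (log2 change -2.20, SE 0.48, adjusted p = 0.0113). All 4 differentiating libraries lay below all 4 proliferating ones. Lss, the cyclase that forms lanosterol, averaged 8.57 ± 4.69 FPKM in differentiating and 29.8 ± 23.9 FPKM in proliferating libraries (SD, n = 4 each) and missed the threshold (log2 change -1.39, SE 0.48, adjusted p = 0.0549). Cyp51 (chromosome 5, 4080674 to 4104697), the demethylase that acts on lanosterol, had 30.8 FPKM in FUBP1-D, 9.21 in CIC-D, 18.6 in 7 and 6.09 in GFP-D, against 105 in FUBP1, 44.1 in CIC, 116 in TRC and 25.6 in GFP (log2 change -2.09, SE 0.50, adjusted p = 0.0156). Here FUBP1-D exceeded GFP, so the states overlapped in 1 pair of libraries.

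The other 3 enzymes that fell changed less and with less spread. Mvd, which decarboxylates mevalonate diphosphate, averaged 8.79 ± 1.55 FPKM in differentiating and 21.5 ± 10.99 FPKM in proliferating libraries (SD, n = 4 each; log2 change -1.07, SE 0.29, adjusted p = 0.0239). Ebp, the sterol isomerase, averaged 8.65 ± 1.60 FPKM in differentiating and 15.4 ± 4.21 FPKM in proliferating libraries (log2 change -0.74, SE 0.17, adjusted p = 0.0142), and Sc5d, the sterol desaturase, averaged 19.9 ± 5.49 FPKM in differentiating and 35.2 ± 7.17 FPKM in proliferating libraries (log2 change -0.81, SE 0.25, adjusted p = 0.0383). Only Fdps and Sc5d separated the states without overlap, 2 of 16 enzymes, where 17.8% of all rows had all differentiating libraries below all proliferating ones.

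Among the 8 remaining enzymes, none of which passed the test, the estimates ran from -1.02 for Nsdhl (adjusted p = 0.0914) to -0.51 for Hsd17b7 (adjusted p = 0.214), both enzymes of the demethylation of sterols. The mevalonate kinases Mvk (-0.61) and Pmvk (-0.72), the squalene synthase Fdft1 (-0.62), the squalene epoxidase Sqle (-0.69), the sterol reductase Tm7sf2 (-0.61) and Dhcr7 (-0.71), which completes cholesterol, lay between them. Sqle, a controlled step of the pathway, had 120 FPKM in FUBP1-D, 46.0 in CIC-D, 60.8 in 7 and 74.2 in GFP-D, against 154 in FUBP1, 93.6 in CIC, 169 in TRC and 72.1 in GFP. GFP-D was thus as high as GFP, and the SE of 0.28 left an adjusted p of 0.0829. Dhcr7 differed from the other enzymes in the order of proliferating libraries, with FUBP1 (94.8 FPKM) above TRC (60.8 FPKM), and CIC at 19.9 and GFP at 29.7 FPKM. In differentiating libraries it ranged from 19.7 to 29.3 FPKM.

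**Figure D2:**
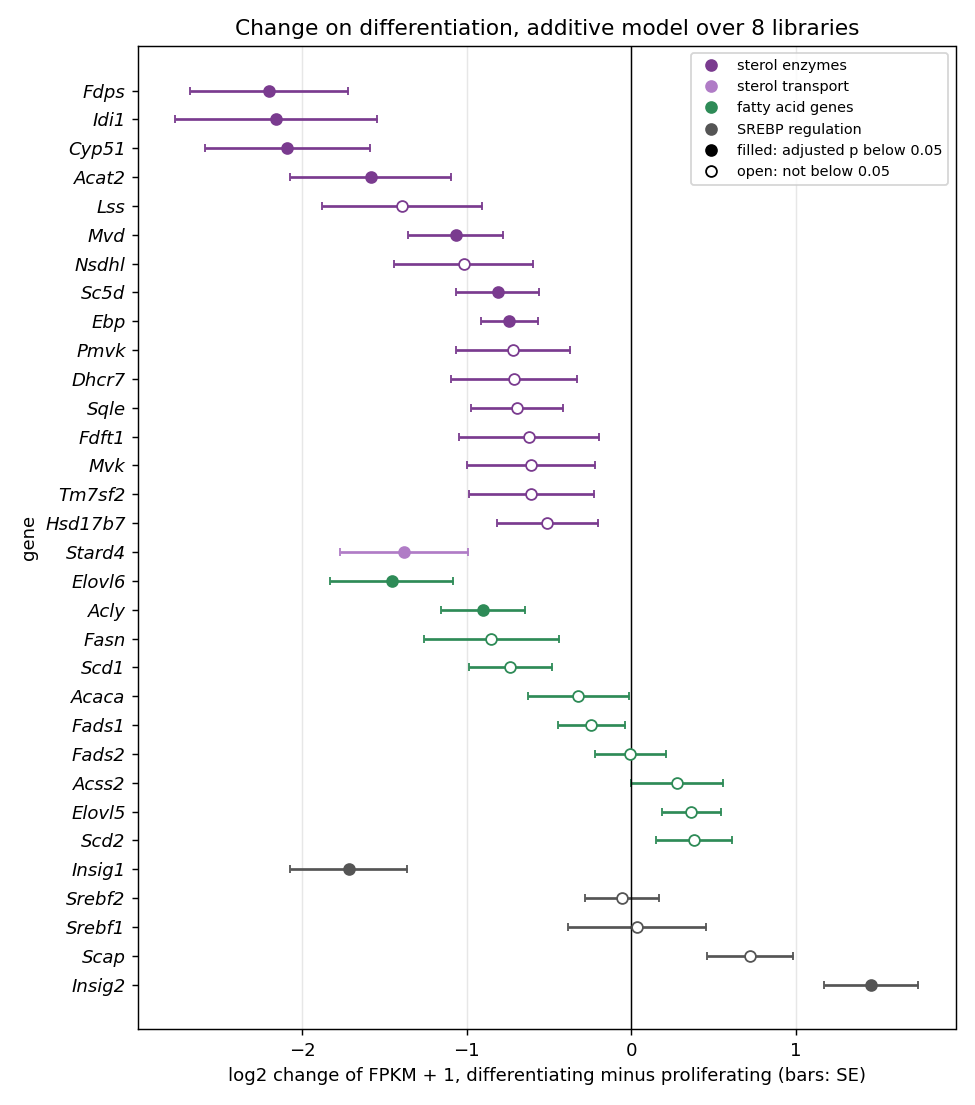
Log2 change of FPKM + 1 between differentiating and proliferating libraries for each gene (points) with its SE (bars), grouped by role and filled where the limma adjusted p was below 0.05. All 16 sterol enzymes lie below 0, from -2.20 to -0.51, while the fatty acid genes run from -1.46 (Elovl6) to 0.38 (Scd2).

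The number of enzymes that passed depended on the fit and on the libraries. It was 0 of 16 in the fit of group means, with 2 residual degrees of freedom, and 4 without the filter on low values. With 1 library left out it was 2 without FUBP1 or FUBP1-D (Fdps and Cyp51), 3 without GFP-D, 4 without CIC or CIC-D, 5 without 7, 7 without TRC and 11 without GFP. Fdps passed in each of these 8 fits. Without FUBP1 and TRC, Fdps alone of the 16 enzymes passed and 14 of 16 estimates stayed negative, with a median of -0.53. Without the 2 proliferating libraries whose Fubp1 level went against their label (GFP and FUBP1) 4 passed (Lss, Sqle, Fdps and Cyp51). The rows called lower over the whole table moved too, from 2114 of 11968 to 1334 of 11968 with group means. They numbered 1150 of 11900 without FUBP1 and 2234 of 11911 without GFP. Without FUBP1 and TRC they numbered 721 of 11840, and without GFP and FUBP1 1287 of 11822.

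Windows around the start sites were searched for motifs of SREBP and its partners, and matches were counted by branch. Sequences come from RefSeq (GRCm38.p6) and cover 250 bases before to 50 bases after a start site. Of the 32 genes, 25 had a window, and Fdps, Fdft1, Sqle, Scd1, Scd2, Fads1 and Stard4 had none. The letters CCAAT, bound by the SREBP partner NF-Y, were searched on both strands and occurred in 12 of the 13 sterol enzymes with a window (92.3%) in 4 of 7 fatty acid genes (57.1%) and in 4 of 5 SREBP regulators, Insig2 among them. Of all genes in the promoter table, expressed or not, 41.1% had them. CCAAT did not set apart the genes that fell. The sterol enzyme without it was Acat2, which fell, and the sterol enzymes with a window that were not called all had it. Elovl6 fell without it as well. The letters GGGCGG, bound by Sp1, occurred in 12 of 13 sterol enzymes and 3 of 7 fatty acid genes, against 38.2% of all genes, and the palindrome CACGTG (E-box) in 3 of 13 and 1 of 7, against 8.09%. The sterol regulatory element written as TCACNCCAC occurred in none of the 25 genes and in 1.44% of all genes, and the shorter CACCCCAC in 1 of 25, Acat2, and in 3.30% of all genes. CACCCCAC lies within the longer form where N is C. Matches of different motifs were counted whether or not they overlapped. The 4 genes below have the largest decreases among those with a window, and capitals mark CCAAT or its reverse complement and, in Acat2, CACCCCAC. In order they lie at chr13:8885356-8885655 (plus strand), chr5:4104648-4104947 (minus strand), chr5:28071162-28071461 (plus strand) and chr17:12960676-12960975 (minus strand), and each is printed 5′ to 3′ along its gene's strand. Idi1 has 2 CCAAT matches and Cyp51 and Insig1 have 1 each, while Acat2 has none.
Idi1: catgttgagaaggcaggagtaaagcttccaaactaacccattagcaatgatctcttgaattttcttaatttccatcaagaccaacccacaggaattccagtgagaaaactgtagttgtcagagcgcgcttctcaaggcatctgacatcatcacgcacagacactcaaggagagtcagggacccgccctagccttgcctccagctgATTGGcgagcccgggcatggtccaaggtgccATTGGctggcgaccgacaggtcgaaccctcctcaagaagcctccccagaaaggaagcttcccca
Cyp51: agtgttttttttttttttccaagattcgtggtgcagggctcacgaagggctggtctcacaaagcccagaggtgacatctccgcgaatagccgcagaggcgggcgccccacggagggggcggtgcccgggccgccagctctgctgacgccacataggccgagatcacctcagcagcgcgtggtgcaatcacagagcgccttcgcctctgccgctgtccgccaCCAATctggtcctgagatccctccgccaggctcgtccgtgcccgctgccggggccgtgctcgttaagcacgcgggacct
Insig1: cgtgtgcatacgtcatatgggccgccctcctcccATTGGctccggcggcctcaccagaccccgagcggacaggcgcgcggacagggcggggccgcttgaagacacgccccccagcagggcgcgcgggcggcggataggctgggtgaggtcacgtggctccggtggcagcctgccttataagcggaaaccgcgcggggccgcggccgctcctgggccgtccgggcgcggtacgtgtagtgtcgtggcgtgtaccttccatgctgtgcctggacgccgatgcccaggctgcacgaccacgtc
Acat2: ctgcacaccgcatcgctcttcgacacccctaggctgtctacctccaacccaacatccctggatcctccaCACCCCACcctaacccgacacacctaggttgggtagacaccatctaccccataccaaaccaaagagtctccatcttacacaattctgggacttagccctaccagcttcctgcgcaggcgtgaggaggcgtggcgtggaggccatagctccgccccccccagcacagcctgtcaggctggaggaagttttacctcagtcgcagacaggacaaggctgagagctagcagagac

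The fatty acid branch changed in few of its genes. Of 10 genes 2 fell, Elovl6 and Acly, and none rose, so 20.0% were called lower beside 17.7% of all rows. The median estimate was -0.28, with 7 negative and 3 positive estimates. Acly, which splits citrate into cytosolic acetyl-CoA and so feeds both branches, had 56.4 FPKM in FUBP1-D, 30.2 in CIC-D, 37.4 in 7 and 40.1 in GFP-D, against 110 in FUBP1, 45.9 in CIC, 120 in TRC and 54.0 in GFP (log2 change -0.90, SE 0.26, limma adjusted p = 0.0293). FUBP1-D again exceeded the 2 lower proliferating libraries. Elovl6 (chromosome 3, 129235304 to 129341411), which lengthens palmitate to stearate, had 8.67 FPKM in FUBP1-D, 5.37 in CIC-D, 8.68 in 7 and 5.04 in GFP-D, against 36.4 in FUBP1, 12.8 in CIC, 34.1 in TRC and 10.3 in GFP (log2 change -1.46, SE 0.37, adjusted p = 0.0203). It was the only gene of the branch whose states did not overlap. Acly did not pass without FUBP1, FUBP1-D, 7, GFP-D, CIC or CIC-D, and Elovl6 not without FUBP1, FUBP1-D or GFP-D. The median of the 10 estimates was -0.13 without TRC and -0.45 without GFP. Without FUBP1 and TRC neither gene passed, and the median was 0.07.

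Genes of de novo synthesis did not pass the test. Fasn (chromosome 11, 120667272 to 120685861), the fatty acid synthase, had 41.1 FPKM in FUBP1-D, 22.9 in CIC-D, 29.6 in 7 and 19.6 in GFP-D, against 105 in FUBP1, 22.3 in CIC, 94.6 in TRC and 27.6 in GFP (log2 change -0.85, SE 0.41, adjusted p = 0.133). CIC and GFP lay within the range of the differentiating libraries. Acaca, the acetyl-CoA carboxylase that makes malonyl-CoA, averaged 15.4 ± 2.40 FPKM in differentiating and 21.5 ± 11.02 FPKM in proliferating libraries (SD, n = 4 each; adjusted p = 0.424). Acss2, which makes acetyl-CoA from acetate, averaged 15.96 ± 5.24 FPKM in differentiating and 12.6 ± 2.33 FPKM in proliferating libraries (adjusted p = 0.454).

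Desaturases and the elongase Elovl5 were abundant in both states. Scd2 (chromosome 19, 44368166 to 44381352) is one of the stearoyl-CoA desaturases, which make monounsaturated fatty acids, and a major form in mouse brain. It had 1006 FPKM in FUBP1-D, 930 in CIC-D, 815 in 7 and 730 in GFP-D, against 914 in FUBP1, 479 in CIC, 853 in TRC and 518 in GFP (log2 change 0.38, SE 0.23, adjusted p = 0.222). Its share of the summed FPKM of the 10 genes was 57.6% to 64.9% in differentiating and 47.6% to 49.8% in proliferating libraries. Its paralog Scd1 (chromosome 19, 44468940 to 44482199) had 132 FPKM in FUBP1-D, 51.8 in CIC-D, 79.1 in 7 and 52.4 in GFP-D, against 175 in FUBP1, 82.4 in CIC, 172 in TRC and 89.7 in GFP (log2 change -0.73, SE 0.25, adjusted p = 0.0541). The estimates of the 2 paralogs thus had opposite signs, and neither passed. Elovl5, an elongase of polyunsaturated fatty acids, averaged 152 ± 21.2 FPKM in differentiating and 118 ± 20.1 FPKM in proliferating libraries (SD, n = 4 each; log2 change 0.36, SE 0.18, adjusted p = 0.138). Fads1, a front-end desaturase of the same pathway, averaged 113 ± 28.6 FPKM in differentiating and 132 ± 25.1 FPKM in proliferating libraries (adjusted p = 0.372). Fads2, the other one, averaged 134 ± 41.5 FPKM in differentiating and 139 ± 55.5 FPKM in proliferating libraries (adjusted p = 0.986). The sign of the Fads2 estimate (-0.01) depended on the setting. With quantile normalization Scd2 and Elovl5 were called higher, and without GFP Scd1 was called lower.

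Of the 5 SREBP regulators 1 fell (Insig1), 1 rose (Insig2) and 3 were not called, shares of 20.0% in each direction beside 17.7% of all rows called lower and 21.2% called higher. Insig1 (chromosome 5, 28397952 to 28405202), an SREBP target that retains SCAP, had 61.0 FPKM in FUBP1-D, 44.7 in CIC-D, 60.5 in 7 and 23.3 in GFP-D, against 255 in FUBP1, 82.0 in CIC, 192 in TRC and 120 in GFP (log2 change -1.72, SE 0.35, limma adjusted p = 0.00936). Every differentiating library lay below every proliferating one. Insig2 (chromosome 1, 123200930 to 123229166), which acts on SCAP in the same way but is not induced by SREBP in the liver, had 28.7 FPKM in FUBP1-D, 88.9 in CIC-D, 57.9 in 7 and 59.9 in GFP-D, against 11.9 in FUBP1, 23.7 in CIC, 13.8 in TRC and 35.0 in GFP (log2 change 1.46, SE 0.29, adjusted p = 0.00792). It was the only one of the 32 genes that rose, and its states overlapped because GFP exceeded FUBP1-D. Scap had 46.5 FPKM in FUBP1-D, 68.8 in CIC-D, 44.8 in 7 and 57.0 in GFP-D, against 42.0 in FUBP1, 20.5 in CIC, 35.8 in TRC and 34.0 in GFP (log2 change 0.72, SE 0.26, adjusted p = 0.0630). Its states did not overlap, as in the 20.1% of all rows with every differentiating library above every proliferating one, but it did not pass. Without FUBP1 and TRC neither Insig1 nor Insig2 passed, and without GFP and FUBP1 Insig2 passed and Insig1 did not. Both passed in each fit with 1 library left out.

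The SREBP genes themselves did not pass. Srebf1, whose product acts mainly on fatty acid genes, averaged 54.6 ± 15.6 FPKM in differentiating and 59.4 ± 34.5 FPKM in proliferating libraries (SD, n = 4 each; log2 change 0.03, SE 0.42, adjusted p = 0.958). Srebf2, whose product acts mainly on sterol genes, averaged 79.6 ± 17.7 FPKM in differentiating and 83.2 ± 21.8 FPKM in proliferating libraries (log2 change -0.06, SE 0.23, adjusted p = 0.861). Srebf2 varied least of the 5 regulators over the 8 libraries, with a ratio of 1.91 between highest and lowest, against 10.9 for Insig1. Stard4, a cytosolic carrier of sterols, fell, with 7.68 ± 5.16 FPKM in differentiating and 21.0 ± 11.8 FPKM in proliferating libraries (log2 change -1.38, SE 0.39, adjusted p = 0.0279). It did not pass without FUBP1 and TRC, nor with TRC, FUBP1, FUBP1-D, CIC, CIC-D or GFP-D left out singly.

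Ratios in 4 of 6 pairs of genes, chosen after their values were seen, separated the states without overlap. The ratio of Insig1 to Insig2 was 2.13 in FUBP1-D, 0.502 in CIC-D, 1.05 in 7 and 0.388 in GFP-D, against 21.4 in FUBP1, 3.47 in CIC, 13.9 in TRC and 3.42 in GFP. Scd2 exceeded Scd1 by 7.65 in FUBP1-D, 17.9 in CIC-D, 10.3 in 7 and 13.9 in GFP-D, and by 5.23 in FUBP1, 5.82 in CIC, 4.97 in TRC and 5.77 in GFP. The ratio of Elovl5 to Elovl6 ran from 15.5 to 35.7 in differentiating and from 2.95 to 13.7 in proliferating libraries. That of Scap to Insig1 ran from 0.740 to 2.45 in differentiating and from 0.165 to 0.284 in proliferating libraries. This last separation was fixed in advance, because Scap and Insig1 each separated the states by themselves, in opposite directions. Insig1 and Elovl6, which enter 2 of the other ratios, also separated the states by themselves. The share of all pairs of genes whose ratio separates the states is not given here. In these 4 pairs CIC and GFP lay on the proliferating side, although the level of several genes in these libraries lay within the differentiating range. The states overlapped in the ratio of Fads2 to Fads1, which was 0.942 to 1.44 in differentiating and 0.496 to 1.41 in proliferating libraries. They also overlapped in that of Srebf2 to Srebf1, which was 0.818 to 2.69 in differentiating and 1.04 to 2.74 in proliferating libraries.

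**Figure D3:**
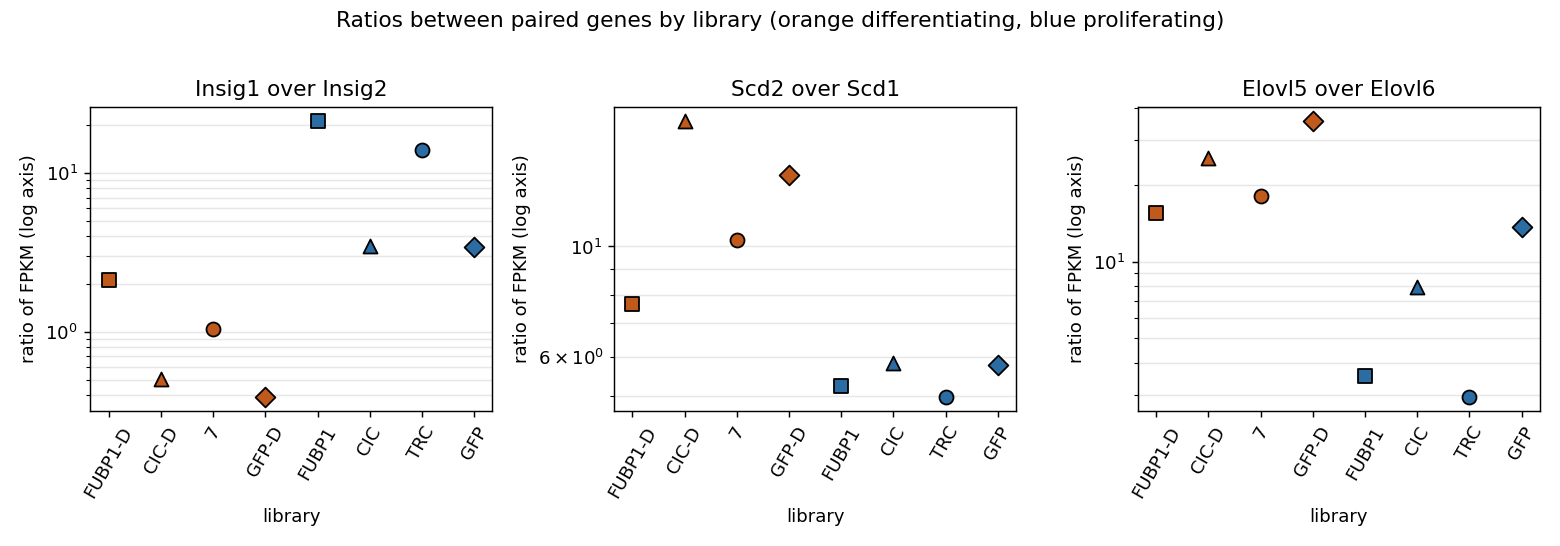
Ratio of FPKM between 3 pairs of genes (log axis) in each library, with differentiating libraries on the left. Insig1 over Insig2 is at most 2.13 in differentiating and at least 3.42 in proliferating libraries, while Scd2 over Scd1 and Elovl5 over Elovl6 are higher in every differentiating library.

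Set side by side, the mean level of the sterol branch differed by more between the states than that of the fatty acid branch. The mean log2(FPKM + 1) over the 16 sterol enzymes was 4.68 in FUBP1-D, 3.75 in CIC-D, 4.16 in 7 and 3.68 in GFP-D, against 5.85 in FUBP1, 4.45 in CIC, 5.98 in TRC and 4.37 in GFP. The state means differed by -1.10, and FUBP1-D lay above both CIC and GFP. Gene by gene this was so in 9 of 16 sterol enzymes, where 42.3% of all rows showed it. Over the 10 fatty acid genes the mean was 6.17 in FUBP1-D, 5.65 in CIC-D, 5.93 in 7 and 5.53 in GFP-D, against 6.69 in FUBP1, 5.68 in CIC, 6.57 in TRC and 5.74 in GFP. Here the state means differed by -0.35, and both FUBP1-D and 7 lay above CIC and GFP. Within the fatty acid branch the difference was -0.59 for the synthesis genes (Acaca and Fasn), -0.55 for the elongases, -0.31 for acetyl-CoA supply (Acly and Acss2) and -0.15 for the 4 desaturases. The elongases, acetyl-CoA supply and the desaturases each held estimates of opposite sign. These were Elovl6 (-1.46) and Elovl5 (0.36), Acly (-0.90) and Acss2 (0.28), and, among the desaturases, Scd1 (-0.73) and Scd2 (0.38).

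The gap between the branches separated the states where neither branch did so alone. The sterol mean minus the fatty acid mean was -1.49 in FUBP1-D, -1.90 in CIC-D, -1.77 in 7 and -1.85 in GFP-D, against -0.84 in FUBP1, -1.23 in CIC, -0.59 in TRC and -1.37 in GFP. Every differentiating library lay below every proliferating one, also with pseudocounts of 0.1 and 5 and after quantile normalization. Median of ratios scaling divides a library by a single factor, which nearly cancels in this gap, so it is no check here. Summed FPKM also differed by more in the sterol branch. The sterol enzymes summed to between 242 FPKM (GFP-D) and 489.8 FPKM (FUBP1-D) in differentiating and between 382 FPKM (GFP) and 1323 FPKM (TRC) in proliferating libraries, and the fatty acid genes to between 1227 and 1745 FPKM in differentiating and between 1007 and 1857 FPKM in proliferating libraries. Genes of a branch are not replicates and were listed with results of these data known, so the difference between branches was not tested. Without FUBP1 and TRC the sterol difference was -0.34, the fatty acid difference 0.11 and the gap -0.45. This left only CIC and GFP as proliferating libraries. FUBP1-D and 7, the differentiating libraries with the highest mean in each branch, stayed in. CIC and GFP were higher than CIC-D and GFP-D in both branches, with fatty acid means of 5.68 and 5.74 against 5.65 and 5.53.

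**Figure D4:**
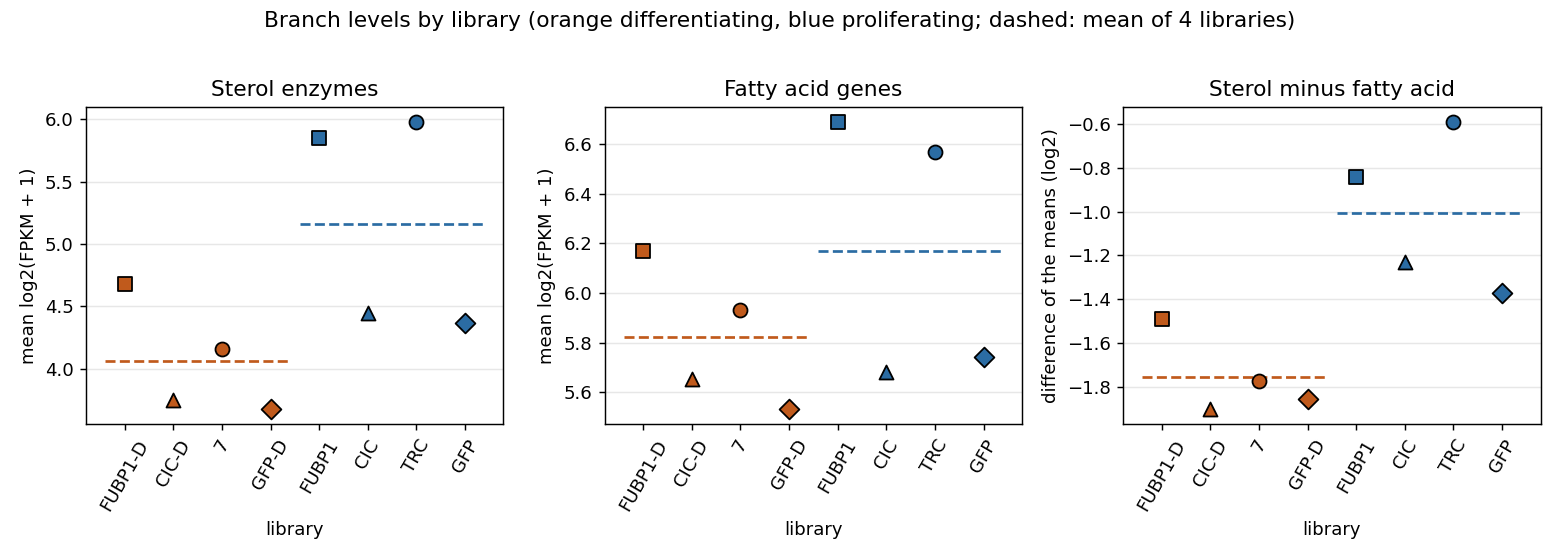
Mean log2(FPKM + 1) of the sterol enzymes (left) and the fatty acid genes (middle) and their difference (right) in each library, with dashed lines at the mean of 4 libraries. The differentiating libraries reach at most -1.49 in the difference and the proliferating ones at least -1.37, while the 2 branches taken singly overlap between states.

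Differentiation was also compared within single constructs. The proliferating library was higher than its differentiating namesake in 16 of 16 sterol enzymes for FUBP1, 14 of 16 for CIC and 14 of 16 for GFP, and the median ratio of proliferating to differentiating FPKM was 2.173 for FUBP1, 1.57 for CIC and 1.56 for GFP. Of 10 fatty acid genes 7 were higher in the proliferating library for FUBP1 (median ratio 1.18), 4 for CIC (0.979) and 7 for GFP (1.26). These are values of single libraries without a test, and the share of all rows going the same way is not given here. The difference of the FUBP1 or CIC effect between states, tested in a fit of 6 group means, passed in 0 of 32 genes (smallest limma adjusted p 0.9995 for FUBP1 and 0.998 for CIC, background 0% for both). At an unadjusted p under 0.05 there were 0 of the 32 genes for FUBP1, beside 99 of all rows, and 1 for CIC, beside 512 of all rows.

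Within NT cells alone, 27 of 32 estimates were negative, beside 46.1% of all rows, and none passed (0 of 32 in limma, background 1.46%). This comparison of 7 and GFP-D with TRC and GFP came from the fit of 6 group means, with 2 residual degrees of freedom. At an unadjusted p under 0.05 there were 8 of 32 genes (25.0%), beside 26.1% of all rows. The genes of smallest p were Insig1 (log2 change -1.98, SE 0.52, adjusted p = 0.102), Ebp (-0.87, SE 0.28, adjusted p = 0.140) and Fdps (-2.38, SE 0.78, adjusted p = 0.145). Leaving out GFP or TRC leaves 1 proliferating NT library and 1 residual degree of freedom, so calls of those fits are not given. With TRC left out and 7 kept, 19 of 32 estimates were negative, 12 of 16 among the sterol enzymes. The median of the 32 was then -0.21, against -0.82 with all libraries.

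Between the NT libraries of proliferating cells the ratios were as large as between the states. TRC exceeded GFP in all 16 sterol enzymes, by a median ratio of 3.23, from 1.22 for Ebp to 5.99 for Lss, and in 9 of 10 fatty acid genes by a median of 1.78 over the 10. Elovl5 was the exception, with a ratio of 0.717. The share of all rows in which TRC exceeded GFP is not given here. FUBP1 stood close to TRC, with a median ratio of FUBP1 to TRC of 0.892 over the sterol enzymes and 1.08 over the fatty acid genes. CIC stood close to GFP, with a median ratio of CIC to GFP of 1.04 and 0.922, though Pmvk was 2.30 times as high in CIC. Insig2 ran the other way, with a ratio of TRC to GFP of 0.393.

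**Figure D5:**
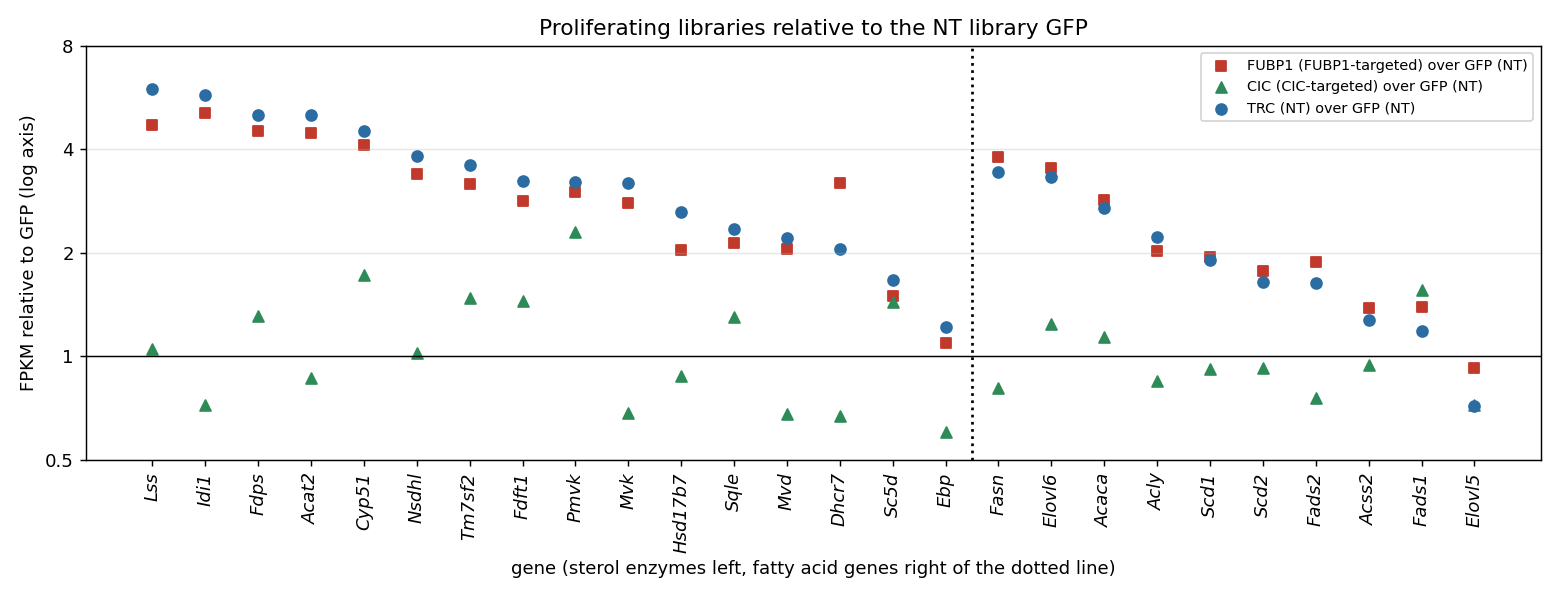
FPKM of FUBP1, CIC and TRC relative to the NT library GFP (log axis) for the 16 sterol enzymes (left of the dotted line) and 10 fatty acid genes (right). TRC and FUBP1 lie together at up to 5.99 times GFP, and CIC scatters around 1.

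With the FUBP1 label no gene passed, although most estimates were positive. Over both states 30 of 32 genes had a positive estimate, with a median log2 difference of 0.64, beside 53.6% positive and a median of 0.02 over all rows. Limma called 0 of 32 (background 0%), with 3 of 32 at an unadjusted p under 0.05, beside 256 of 11968 rows. These 3 were Insig2 (log2 difference -0.93, SE 0.35), Fads2 (0.66, SE 0.27) and Scd1 (0.75, SE 0.31), each at an adjusted p of 0.999. The sterol median was 0.74, and it was 0.47 without GFP and 1.10 without TRC. The median of the 32 genes was 0.40 without GFP and 0.88 without TRC. Set against each NT library without a test, FUBP1-D lay above both 7 and GFP-D in 15 of 16 sterol enzymes (all but Sc5d) and 7 of 10 fatty acid genes, where 34.9% of all rows did so. The median log2 difference from 7 was 0.61 and from GFP-D 0.78 over the sterol enzymes. In proliferating cells FUBP1 lay above both TRC and GFP in 1 of 16 sterol enzymes (Dhcr7) and 8 of 10 fatty acid genes, where 26.7% of all rows did so.

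With the CIC label the estimates leaned to the other side and none passed. Of 32 genes 28 had negative estimates, with a median of -0.38, beside 54.4% negative and a median of -0.04 over all rows, and limma called 0 of 32 (background 0.109%). At an unadjusted p under 0.05 there was 1 of 32 (3.1%), below the 11.4% of all rows. This was Ebp (log2 difference -0.62, SE 0.21, adjusted p = 0.361), followed by Hsd17b7 (-0.84, SE 0.37, adjusted p = 0.450) and Stard4 (-0.95, SE 0.48, adjusted p = 0.480). The median of the 32 estimates was -0.08 without CIC, -0.12 without TRC, -0.63 without GFP and -0.75 without CIC-D. CIC lay below both TRC and GFP in 7 of 16 sterol enzymes and 6 of 10 fatty acid genes, where 39.9% of all rows did so, and CIC-D lay below both 7 and GFP-D in 5 of 16 and 4 of 10, where 34.1% did so.

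Between the FUBP1 and CIC labels, which share no library, 31 of 32 estimates were positive, with a median log2 difference of 1.04 beside 0.07 over all rows. Without the library CIC this median was 0.62. In proliferating cells the comparison ran along the split of FUBP1 and TRC from CIC and GFP. The NT libraries TRC and GFP showed that split by themselves, with a median ratio of 3.23 over the sterol enzymes. The part of the split in this difference was not tested. Limma called 0 of 32 (background 0.0501%), with 13 of 32 (40.6%) at an unadjusted p under 0.05, beside 11.2% of all rows. The genes of smallest p were Fads2 (log2 difference 1.06, SE 0.31, adjusted p = 0.368), Scd1 (1.20, SE 0.36, adjusted p = 0.380) and Stard4 (1.72, SE 0.55, adjusted p = 0.391). Insig2 was the gene with a negative estimate (-1.27).

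Other genes of lipid metabolism moved on differentiation in several directions. Beside 21.2% of all rows called higher and 17.7% called lower, 4 of 6 further genes of sterol and isoprenoid synthesis fell (66.7%), among them Sc4mol (47.1 ± 13.7 FPKM in differentiating and 140.0 ± 74.2 FPKM in proliferating libraries, SD, n = 4 each). Of 15 genes of sterol uptake, storage and export that passed the filter, 5 rose (33.3%) and 1 fell (6.67%). Apoe, the main apolipoprotein of astrocytes, rose to 2067 ± 1150 FPKM in differentiating cells, against 188 ± 176 FPKM in proliferating cells. Cyp46a1, which hydroxylates cholesterol for removal from the brain, rose to 46.1 ± 7.77 FPKM in differentiating cells, against 2.03 ± 1.06 FPKM in proliferating cells. The receptor gene Lrp1 rose to 246.7 ± 57.8 FPKM in differentiating cells, against 58.2 ± 41.3 FPKM in proliferating cells.

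Among 16 other genes of fatty acid and glycerolipid metabolism, 3 rose (18.8%, near the share of all rows) and 5 fell (31.2%). Gpam, an acyltransferase of glycerolipid assembly, averaged 48.1 ± 17.1 FPKM in differentiating and 17.1 ± 3.65 FPKM in proliferating libraries. Lpin1, a phosphatase of the same pathway, averaged 33.04 ± 5.76 FPKM in differentiating and 14.6 ± 3.01 FPKM in proliferating libraries (SD, n = 4 each), and Ptplad1 rose as well. Acsl4, which activates arachidonate, fell to 12.9 ± 2.43 FPKM, against 52.4 ± 17.8 FPKM in proliferating cells, together with Dgat2 and Elovl4. Of 19 genes of fatty acid oxidation 4 rose, a share of 21.1% that matches that of all rows, and 1 fell (Etfb). Cpt1c and Acadm were among those that rose. Among 9 genes of SREBP processing Erlin2 rose and Erlin1 fell (11.1% in each direction). All 16 cell cycle genes fell, with a median log2 change of -4.15.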

How the data were processed

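RNA-seq was analysed in 8 libraries from 1 table of gene-level values, which the authors deposited as FPKM. Per the submitters' processing notes, the tools were bcl2fastq 2.17, cutadapt, TopHat2 2.0.11 and Cufflinks 2.1.1 with the mm9 build. Fragment counts were not used here and the depth is unknown, so no interval for counting error is given.

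Rows that reached 1 FPKM in 2 libraries or more (11968 of 20793) were compared as log2(FPKM + 1) with limma 3.58.1 in R 4.3.3, with empirical Bayes moderation, a mean-variance trend and Benjamini-Hochberg adjustment over all kept rows at 0.05. A fold change on this scale understates that of low genes. The fit of state plus targeted gene had 4 residual degrees of freedom. A fit of 6 group means, with 2, gave the change within NT libraries and the difference of a hairpin's effect between states. It drew its spread from the NT pairs alone and assumed that single libraries vary like them.

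The 33 genes and the other lists were chosen with earlier results of these data known, so no list was tested as a whole. All genes of the set are described, with full values for those past the threshold and for the regulated steps. Alternatives were other pseudocounts (0.1 and 5), no filter, median of ratios scaling, quantile normalization, no trend, group means, a block, and libraries left out. Leaving out FUBP1 and TRC, or FUBP1 and GFP, was chosen after seeing the data. Replicate numbers follow accession order and pair nothing. Some genes of the other lists are counted but not reported singly here.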

Additional observations from a re-analysis of the deposited data

How the results depend on the processing

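On differentiation, 11 of the 32 genes fell and 1 rose. The number lower was 6 without the filter, 1 with group means, 1 without TRC and FUBP1 and 6 without GFP and FUBP1, and 3 to 16 with 1 library left out. The number higher was 4 with quantile normalization, 2 with group means and 0 without TRC and FUBP1, and 1 in every fit with 1 library left out. Of the sterol enzymes (7 lower) 4 were called without the filter, 0 with group means, 11 without both GFP libraries, 1 without TRC and FUBP1 and 4 without GFP and FUBP1, and 2 to 11 with 1 library left out. Of the fatty acid genes (2 lower) 1 was called without the filter, 0 with group means and 0 without TRC and FUBP1, and 0 to 3 with 1 library left out. With libraries of the same construct name as a replicate block, 1 fatty acid gene was called in place of 2, and 10 genes in all were called lower. Within NT libraries none was called in the main fit. Fits with an NT library left out are not counted here, because 1 library then stands for an NT state. Over all rows, differentiation gave 1839 of 16724 lower without the filter, 1334 of 11968 with group means and 721 of 11840 without TRC and FUBP1. It gave 1949 of 11800 lower without both GFP libraries and 1287 of 11822 without GFP and FUBP1. The causes were not tested, beyond the fewer libraries and degrees of freedom of these fits.

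Without TRC and FUBP1, with all differentiating libraries kept, the state difference of the fatty acid branch was 0.11 instead of -0.35. In the same setting 5 genes changed sign, Tm7sf2 (0.0035), Dhcr7 (0.041), Acaca (0.23), Fads2 (0.27) and Srebf2 (0.19). The other changes of sign concerned estimates near 0. Fads2 was at 0.23 with quantile normalization, 0.067 with group means and 0.14 with the block, at 0.18 without TRC, 0.0025 without FUBP1 or FUBP1-D and 0.092 without GFP-D. Srebf1 was at -0.0731 with median of ratios scaling and -0.20 without both GFP libraries, at -0.44 without CIC or CIC-D, -0.0908 without GFP and -0.12 without GFP-D. Srebf2 was at 0.13 with quantile normalization and 0.0062 without both GFP libraries, at 0.089 without TRC and 0.11 without GFP-D. With the letters CACCCCAC in place of TCACNCCAC, 1 promoter matched instead of 0.

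Over 608 values of single genes under the alternatives, 492 kept direction and side of the threshold, 73 lost the call, 21 gained it and 22 reversed. No gene of the set was called for FUBP1, for CIC or between them under any alternative run. Over all rows, differentiation gave 2533 higher and 2114 lower as deposited, 2134 and 2478 with median of ratios scaling, and 2040 and 2215 with quantile normalization. Depth is unknown, so precision at low FPKM cannot be stated.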
